A study of Mus musculus with 10 samples.

Results

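The Cyp2a genes of the mouse encode cytochrome P450 enzymes of the liver, and 4 of the 16647 genes in the count table belong to them. They were selected by symbol after the Entrez gene numbers of the table had been matched to mouse gene names, which gave *Cyp2a4* (Entrez gene 13086), *Cyp2a5* (13087), *Cyp2a12* (13085) and *Cyp2a22* (233005). Messenger RNA of each gene was compared between 5 MI-883-treated and 5 control (vehicle-treated) livers. All 10 livers came from male Taconic mice, each from another animal, of the line named humanized PXR-CAR-CYP3A4/3A7 after the human genes it carries. Which promoter drives the human genes is not given in the sources used here. Both groups started high-fat diet (HFD) at an age of 10 to 15 weeks, stayed on it for 8 weeks before treatment, and remained on it during 4 weeks of oral gavage 3 times a week. MI-883, a ligand that activates human CAR and blocks human PXR, was given at 5 mg/kg in a vehicle of 5% DMSO, 5% PEG300 and 90% corn oil, and the control mice received the vehicle alone.

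CYP2A enzymes insert oxygen into small lipophilic molecules, using electrons handed over by cytochrome P450 reductase. Cyp2a5 is the coumarin hydroxylase of mouse liver, it also oxidizes nicotine and bilirubin, and its mRNA is found mainly in hepatocytes around the central vein and is known to respond to CAR activators such as phenobarbital. Cyp2a4 is a testosterone hydroxylase whose mRNA is more abundant in female than in male liver, Cyp2a12 hydroxylates testosterone and returns secondary bile acids to primary ones in mice, and little is established about Cyp2a22.

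The 4 genes lie in one cluster on chromosome 7 (build GRCm38), where each has 9 exons. RefSeq places *Cyp2a4* at chr7:26307192-26315088, *Cyp2a5* at chr7:26835339-26843264 and *Cyp2a12* at chr7:27029090-27036818, all on the plus strand, and *Cyp2a22* at chr7:26931631-26939413 on the minus strand. They form 2 pairs of close relatives. Their GENCODE transcripts were compared base by base. Those of *Cyp2a4* and *Cyp2a5* were 98.2% identical, with 30 substitutions in 1739 aligned columns, and those of *Cyp2a12* and *Cyp2a22* were 96.1% identical, with 58 substitutions. Across the pairs, the identity of the transcripts was 70.9 to 73.5%.

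The likeness of each pair continued upstream of the genes. The 250 bases before the RefSeq start were 98.4% identical between *Cyp2a4* and *Cyp2a5*, with 4 substitutions, and 86.8% identical between *Cyp2a12* and *Cyp2a22*, with 20 substitutions and 13 gap columns. The stretch from 250 to 31 bases before each start is shown because members of each pair differ widely in mRNA level, as the values further on show. Sequences are from RefSeq (GRCm38.p6), written 5′ to 3′ on the strand of the gene, and capitals mark bases that differ from or are missing in the other member of the pair. They are chr7:26306942-26307161, chr7:26835089-26835308 and chr7:27028840-27029059 on the plus strand and chr7:26939417-26939636 on the minus strand, in the order printed. Starts are those of the RefSeq promoter table, which fall on the outer end of the gene spans given above for 3 genes and 27 bases inside it, at base 26939386, for *Cyp2a22*.
Cyp2a4: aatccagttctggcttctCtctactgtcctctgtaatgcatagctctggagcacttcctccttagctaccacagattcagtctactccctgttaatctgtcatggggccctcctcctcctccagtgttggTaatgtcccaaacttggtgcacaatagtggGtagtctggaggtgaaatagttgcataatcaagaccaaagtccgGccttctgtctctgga
Cyp2a5: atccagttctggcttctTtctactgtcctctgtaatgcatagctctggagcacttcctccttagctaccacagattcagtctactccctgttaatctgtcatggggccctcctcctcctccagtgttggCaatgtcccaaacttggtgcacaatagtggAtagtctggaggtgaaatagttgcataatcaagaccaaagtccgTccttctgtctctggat
Cyp2a12: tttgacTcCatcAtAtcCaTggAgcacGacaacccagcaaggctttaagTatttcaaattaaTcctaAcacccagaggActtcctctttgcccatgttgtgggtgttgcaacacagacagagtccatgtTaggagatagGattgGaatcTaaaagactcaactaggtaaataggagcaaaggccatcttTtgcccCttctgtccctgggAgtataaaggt
Cyp2a22: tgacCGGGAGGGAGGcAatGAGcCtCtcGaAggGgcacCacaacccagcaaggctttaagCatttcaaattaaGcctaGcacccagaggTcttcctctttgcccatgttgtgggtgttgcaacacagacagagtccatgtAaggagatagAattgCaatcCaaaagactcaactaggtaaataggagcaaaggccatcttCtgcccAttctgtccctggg

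The first pair of lines differs at 4 positions, while the 31 capitals of *Cyp2a22* gather in the distal part of the window. The motif TATAAA was found in all 4 promoters, starting 28 bases before the start of *Cyp2a4*, 29 before *Cyp2a5*, 39 before *Cyp2a12* and 28 before *Cyp2a22*. It was also present in 12.4% of 32851 mouse promoters of the same length. The letters CAAAGTCC, part of the site for the hepatocyte factor HNF4 known from the *Cyp2a5* promoter, stood 55 bases before the start of *Cyp2a4* and 56 bases before that of *Cyp2a5*, and were not found in *Cyp2a12* or *Cyp2a22*. They occurred in 1.20% of all promoters, and were searched for after the sequences had been seen. The nuclear receptor half-site AGGTCA (14.0% of all promoters), the Ah receptor core GCGTG (28.2%), the antioxidant response core TGACNNNGC (10.2%) and the Stat5 site TTCNNNGAA (7.02%) were not found on either strand of these windows.

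Close identity also limits the counts. Of all 100-base stretches of the *Cyp2a5* transcript, 14.4% occurred unchanged in another gene, *Cyp2a4* or the pseudogene *Cyp2a21-ps*, and 5.79% of its 150-base stretches did. The same shares were 11.2% and 4.22% for *Cyp2a4*, 6.83% and 3.72% for *Cyp2a12*, and 6.36% and 3.46% for *Cyp2a22*. A read inside such a stretch cannot by itself be assigned to one gene, although in these paired-end libraries its mate may lie outside the stretch. How many read pairs were ambiguous was not measured. The counts of *Cyp2a4* and *Cyp2a22*, the scarce members of their pairs, are therefore uncertain. *Cyp2a22* also lies within the span of *Cyp2a21-ps* on the opposite strand, and the antisense gene *Gm42375* overlaps the start of *Cyp2a4*. The libraries were made with a strand-specific kit, but the strand setting of the counting is not given in the sources used here.

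Libraries held between 24014461 and 36221514 gene counts in control livers (median 31734138) and between 23513665 and 28349963 in MI-883-treated livers (median 24581671). Hepatocyte markers were abundant in every liver, with a summed level over 7 genes of 79206 to 92023 CPM (the usual depth-scaled count, here on TMM-scaled libraries) in the control group and 67526 to 80090 in the MI-883 group, and genes of the Y chromosome were counted in all 10 libraries. Markers of Kupffer cells, endothelial, stellate and bile duct cells and leukocytes were present at far lower levels, and none of the 44 tested markers, hepatocyte and Y-linked genes included, passed the edgeR test between groups. At an unadjusted P below 0.05 there were 11, and DESeq2 called 1, the hepatocyte marker *Apoa1*, as lower. *Cyp2b10*, the reference target of CAR in mouse liver, rose from 36.5 ± 9.10 to 1019 ± 299 CPM (S.D., n = 5 each).

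The 4 genes covered a wide range of levels, and their order was the same in every liver. Per kilobase of transcript, mean control levels were 1248 ± 218 CPM for *Cyp2a5*, 457 ± 57.8 for *Cyp2a12*, 4.46 ± 1.20 for *Cyp2a4* and 0.612 ± 0.681 for *Cyp2a22* (S.D., n = 5). In MI-883-treated livers they were 2125 ± 403, 471 ± 35.1, 4.88 ± 2.14 and 0.363 ± 0.0986 CPM per kilobase. No neighbours in this order overlapped: within single livers *Cyp2a5* exceeded *Cyp2a12* 2.12- to 4.98-fold, and the lowest *Cyp2a4* level of any liver (2.61 CPM per kilobase) lay above the highest of *Cyp2a22* (1.83). Among 13150 tested genes with a known length, *Cyp2a5* ranked 56th in control and 31st in MI-883-treated livers, *Cyp2a12* ranked 171st and 152nd, *Cyp2a4* 6625th and 6381st, and *Cyp2a22* 10732nd and 11524th.

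**Figure D1:**
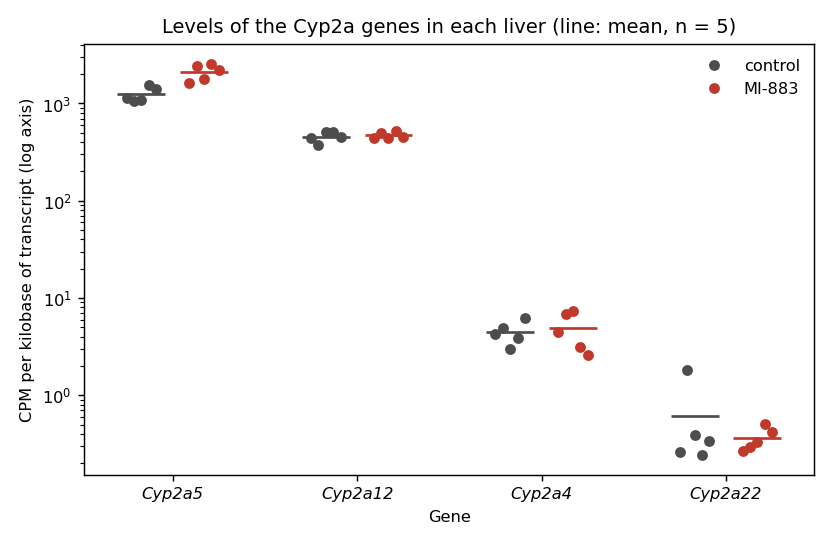
Level of each Cyp2a gene in CPM per kilobase of transcript (log axis) in 5 control (grey) and 5 MI-883-treated (red) livers, with 1 point per liver and a line at the group mean. The *Cyp2a5* points of the MI-883 group lie above all control points, the groups overlap for the other 3 genes, and 1 control liver stands apart at 1.83 for *Cyp2a22*.

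*Cyp2a5* mRNA was upregulated by MI-883. Its level was 2298, 2137, 2178, 3113 and 2840 CPM in control replicates 1 to 5 and 3288, 4846, 3585, 5175 and 4492 CPM in MI-883 replicates 1 to 5. Every MI-883-treated liver was above every control liver, though control replicate 4 and MI-883 replicate 1, the nearest of the 2 groups, were close to each other. The mean rose from 2513 ± 438 to 4277 ± 811 CPM (S.D., n = 5), a log2 fold change of 0.77 with a standard error (SE) of 0.151 and a 95% confidence interval of 0.44 to 1.09, which is 1.70-fold with limits of 1.36 and 2.13. The difference passed the threshold of 0.05 in edgeR (adjusted P = 0.0281) and in DESeq2 (adjusted P = 3.75e-05), and the exact two-sided permutation test of log2 CPM gave P = 0.00794, the smallest value that 5 against 5 livers can give.

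*Cyp2a5* was the only one of the 4 genes to pass the edgeR test, among 13219 genes tested of which 1.03% passed in either direction and 0.764% were higher (0.265% lower). It was likewise the only one whose groups did not overlap, as was the case for 3.98% of all tested genes, 2.05% with MI-883 above. DESeq2 called 3.50% of genes, 2.20% as higher. It gave *Cyp2a22* no adjusted P, and of the other members it called *Cyp2a5* alone. The edgeR call was close to its threshold: it was lost when control replicate 2 (adjusted P = 0.0710), 3 (0.0839) or 5 (0.0554) or MI-883 replicate 2 (0.0756), 4 (0.0581) or 5 (0.0853) was left out, with log2 fold changes of 0.69 to 0.86 over the 10 such fits. In whole liver RNA, a rise in mRNA per hepatocyte and a larger share of the cells that express the gene cannot be told apart. All 7 tested hepatocyte markers had a lower estimate in MI-883-treated livers, with a median log2 fold change of -0.25. None was called by edgeR, and DESeq2 called *Apoa1* as lower. Their part in the result was not tested.

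*Cyp2a5* made up between 0.212% and 0.494% of all counts of a library, with 53291 to 126681 counts per liver, so counting error is small beside the spread between animals. The coefficient of variation was 17.4% in control and 19.0% in MI-883-treated livers. Of the summed level of the 4 genes per kilobase, *Cyp2a5* held 72.8 ± 3.09% in control and 81.4 ± 2.15% in MI-883-treated livers (S.D., n = 5), and the ranges of 67.8 to 75.4% and 78.5 to 83.2% were separate. The share of *Cyp2a12* was 26.9 ± 3.12% and 18.4 ± 2.09%.

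*Cyp2a12*, the second most abundant member, showed no detectable difference. Its level was 737, 624, 858, 857 and 763 CPM in control replicates 1 to 5 and 744, 842, 746, 868 and 756 CPM in MI-883 replicates 1 to 5. Of the MI-883-treated livers 4 lay inside the control range and 1 just above it, and the lowest value was that of control replicate 2. Means were 768 ± 97.1 and 791 ± 59.0 CPM (S.D., n = 5), with a log2 fold change of 0.04 (SE 0.0979, edgeR adjusted P = 0.858). The 95% confidence interval of -0.17 to 0.26 corresponds to 0.890- to 1.19-fold, so its upper limit was below the lower limit of 1.36-fold for *Cyp2a5*. *Cyp2a12* was also the steadiest of the 4 genes, with a coefficient of variation of 12.7% in control and 7.45% in MI-883-treated livers.

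*Cyp2a4*, the close relative of *Cyp2a5*, did not rise with it. The gene had 267, 276, 127, 232 and 245 counts in control replicates 1 to 5 and 227, 268, 346, 126 and 128 in MI-883 replicates 1 to 5. In CPM these were 7.46, 8.62, 5.19, 6.72 and 10.7 in control and 7.76, 11.9, 12.8, 5.48 and 4.54 in MI-883-treated livers. The MI-883 group held both the 2 highest and the lowest level of all 10 livers, and the groups overlapped. Means were 7.75 ± 2.09 and 8.49 ± 3.71 CPM (S.D., n = 5), with a log2 fold change of 0.13 (SE 0.275, edgeR adjusted P = 0.847) and a 95% confidence interval of -0.46 to 0.73. That interval holds no change as well as a rise near that of *Cyp2a5*, and without MI-883 replicate 2 or 3 the estimate was -0.01 or -0.07.

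*Cyp2a4* counts equalled 0.216 to 0.404% of the *Cyp2a5* counts in control livers and 0.101 to 0.357% in MI-883-treated livers. This percentage was not constant from liver to liver. How many *Cyp2a4* reads came from *Cyp2a5* was not tested. With the counts of both genes summed, the log2 fold change was 0.77 and the edgeR adjusted P stayed at 0.0281, since nearly all of the sum is *Cyp2a5*.

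*Cyp2a22* was barely expressed, and 1 control liver decided its estimate. The gene had 17, 105, 17, 15 and 14 counts in control replicates 1 to 5 and 14, 12, 16, 21 and 21 in MI-883 replicates 1 to 5. In CPM these were 0.475, 3.28, 0.695, 0.434 and 0.614 in control and 0.479, 0.531, 0.592, 0.914 and 0.745 in MI-883-treated livers. All livers but control replicate 2 lay within a narrow range, and the groups overlapped. The log2 fold change was -0.77 (SE 0.545, 95% confidence interval -1.95 to 0.41, edgeR adjusted P = 0.525), and it turned to 0.25 (edgeR adjusted P = 0.725) without control replicate 2. All values were above the floor of 3 counts, which averages 0.104 CPM in the control and 0.117 CPM in the MI-883 group and covers counting error only.

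Whether the members differed in their response was tested on ratios of counts per length within each liver, which do not depend on how libraries are scaled. All 6 pairs were compared, with Benjamini-Hochberg adjustment over the 6. The log2 ratio of *Cyp2a5* to *Cyp2a12* was 1.38, 1.52, 1.08, 1.60 and 1.64 in control replicates 1 to 5 and 1.88, 2.26, 2.00, 2.32 and 2.31 in MI-883 replicates 1 to 5. All MI-883-treated livers were above all control livers. The mean rose from 1.44 ± 0.224 to 2.16 ± 0.200 (S.D., n = 5), a difference of 0.71 (SE 0.134) by which *Cyp2a5* went from 2.72 to 4.46 times *Cyp2a12* (exact two-sided permutation test, P = 0.00794, adjusted P = 0.0476). Without control replicate 4 the adjusted P was again 0.0476, and there the ratio of *Cyp2a5* to *Cyp2a22* had the same adjusted P. Without any other single liver it was 0.0952. As 5 against 4 livers give no P under 0.0159, the adjusted P of these omissions cannot tell which livers matter. The difference was 0.62 to 0.78 over the omissions.

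None of the other 5 ratios passed the exact permutation test. The log2 ratio of *Cyp2a5* to *Cyp2a4* was 8.05, 7.74, 8.50, 8.64 and 7.83 in control replicates 1 to 5 and 8.51, 8.46, 7.92, 9.66 and 9.73 in MI-883 replicates 1 to 5. Only MI-883 replicates 4 and 5 lay above the control range, and those were the livers with little *Cyp2a4*. The difference of 0.71 (SE 0.402) had the same size as for *Cyp2a12* but a wider error (exact permutation test, P = 0.151, adjusted P = 0.302), so a weaker response of *Cyp2a4* than of *Cyp2a5* was not shown. The ratio of *Cyp2a5* to *Cyp2a22* differed by 1.05 (SE 0.607, exact permutation test, adjusted P = 0.167). The ratios of *Cyp2a4* to *Cyp2a12*, *Cyp2a4* to *Cyp2a22* and *Cyp2a12* to *Cyp2a22* differed by 0.01, 0.35 and 0.34. Single livers decided these values. The ratio of *Cyp2a5* to *Cyp2a22* differed by 0.49 without control replicate 2, and by 1.34 without control replicate 4, where it passed (exact permutation test, adjusted P = 0.0476). Without control replicate 2 the ratios of *Cyp2a4* and *Cyp2a12* to *Cyp2a22* turned to -0.11 and -0.24. The ratio of *Cyp2a4* to *Cyp2a12* ranged from -0.19 to 0.19 over the omission of single livers.

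**Figure D2:**
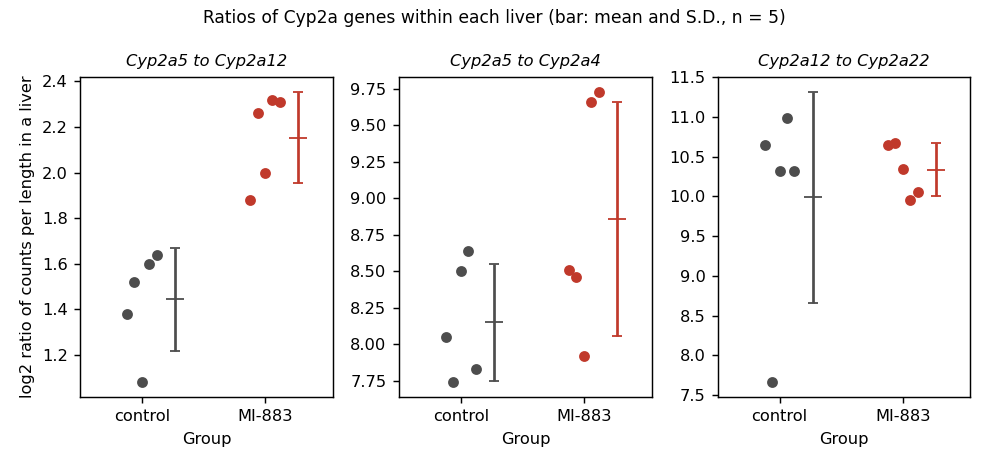
Log2 ratio of counts per length between 2 Cyp2a genes within each of 5 control (grey) and 5 MI-883-treated (red) livers, with 1 point per liver and bars for mean and S.D.; each panel has its own vertical axis. The ratio of *Cyp2a5* to *Cyp2a12* is separate between groups (means 1.44 and 2.16), that of *Cyp2a5* to *Cyp2a4* overlaps, and for *Cyp2a12* to *Cyp2a22* control replicate 2 stands at 7.66, below the others.

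Around the 4 genes, the response was uneven along chromosome 7. Of 14 listed neighbours, 11 were tested, and edgeR called only *Cyp2b10* (log2 fold change 4.80, SE 0.247, adjusted P = 3.63e-07). The median log2 fold change of the 11 was -0.10, against 0.005 over all genes tested. *Cyp2g1*, an olfactory P450 gene that lies between *Cyp2a4* and *Cyp2a5*, was at 4.30 ± 1.81 and 3.51 ± 0.744 CPM, and *Cyp2f2*, an abundant periportal P450 gene beyond *Cyp2a12*, at 999 ± 113 and 1067 ± 125 CPM in control and MI-883-treated livers (S.D., n = 5). *Cyp2b9*, next to *Cyp2a4*, had a log2 fold change of -1.18 (SE 0.554, edgeR adjusted P = 0.327). *Cyp2a5* passed the test and its tested neighbours on either side, *Cyp2g1* and *Cyp2a22*, did not, and the difference between *Cyp2a5* and *Cyp2g1* was not tested.

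**Figure D3:**
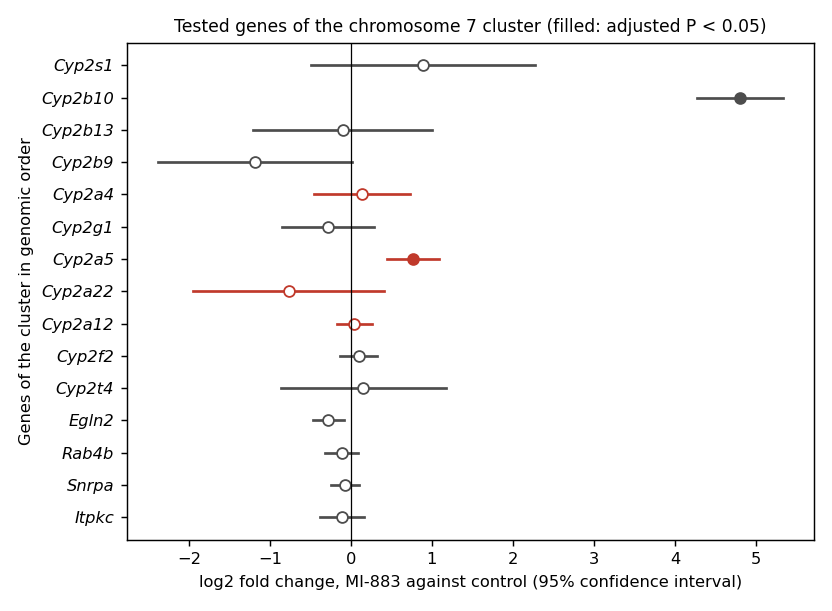
Log2 fold change (MI-883 against control) with its 95% confidence interval for the 4 Cyp2a genes (red) and 11 tested neighbours (grey), listed in their order along chromosome 7, with filled points for edgeR adjusted P below 0.05. *Cyp2b10* at 4.80 and *Cyp2a5* at 0.77 are filled, and the interval of *Cyp2a22* is among the widest, from -1.95 to 0.41.

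Among all other genes of the CYP2 family, 37 of 42 were tested, of which 9 rose and none fell in edgeR. Over all genes tested, edgeR called 0.764% higher and 0.265% lower. The median log2 fold change of the 37 was 0.01, with estimates above 0 for 19 and below 0 for 18. At an unadjusted P below 0.05 there were 20, and DESeq2 called 10 higher and 5 lower. The 5 were *Cyp2c38* (log2 fold change -0.72), *Cyp2c40* (-1.24), *Cyp2c67* (-0.54), *Cyp2c68* (-0.53) and *Cyp2c70* (-0.58), with edgeR adjusted P of 0.0749 to 0.129. Those that rose in edgeR were *Cyp2b10*, 7 genes of the Cyp2c group and the male-biased *Cyp2d9* (log2 fold change 0.58, edgeR adjusted P = 0.0264). The estimate for *Cyp2a5* was larger than that of *Cyp2d9* and below those of the others, from *Cyp2c29* at 1.02 to *Cyp2c66* at 6.86, a gene with 0 to 82 counts whose fold depends on near-absent control counts. Of 24 tested common targets of CAR other than *Cyp2a5*, 17 rose, none fell, and all 24 had a positive estimate, with a median log2 fold change of 1.05 (20 at an unadjusted P below 0.05, and 19 higher in DESeq2). The list was compiled from known CAR targets with earlier results of these data known, so its counts are a description and not a test. *Cyp2a5* lay below the median of the list.

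*Cyp2a5* was also compared with *Cyp2b10* from animal to animal. *Cyp2b10* was at 29.2, 44.3, 24.4, 43.8 and 40.8 CPM in control replicates 1 to 5 and at 851, 1375, 634, 1249 and 989 CPM in MI-883 replicates 1 to 5. MI-883 replicates 2, 4 and 5 were the 3 highest livers for both genes, and replicates 1 and 3 the lowest of that group. In the control group, replicate 2 had the highest *Cyp2b10* level but the lowest *Cyp2a5* level (2137 CPM). Control replicates 4 and 5 were above replicates 1 and 3 for both genes. After subtraction of the group means, Pearson's r of log2 CPM over the 10 livers was 0.71 for *Cyp2a5* with *Cyp2b10* and 0.60 for *Cyp2a5* with *Cyp2a12*. *Cyp2a12* with *Cyp2b10* gave 0.08 and *Cyp2a4* with *Cyp2b10* gave 0.04. With *Cyp2a5*, 124 of 11610 genes reached an r of 0.80 and 211 an r of -0.80. The value for *Cyp2b10* thus lay below that of at least 124 genes, and how many genes reached 0.71 was not counted. These values are descriptions, since genes of one library share its depth and its RNA.

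Genes known for the control of *Cyp2a5* were followed as a list of 13 receptors, transcription factors and RNA-binding proteins. None was called by edgeR in either direction (2 at an unadjusted P below 0.05, and 2 in DESeq2), and the median log2 fold change was -0.02. *Ahr*, the aryl hydrocarbon receptor that can drive *Cyp2a5*, was at 23.5, 37.5, 37.8, 50.8 and 47.5 CPM in control replicates 1 to 5 and at 54.1, 84.8, 72.9, 55.6 and 53.0 CPM in MI-883 replicates 1 to 5. The groups did not overlap, and the log2 fold change of 0.70 (SE 0.191) passed in DESeq2 (adjusted P = 0.0145) but not in edgeR (adjusted P = 0.109). *Cebpa*, a hepatocyte transcription factor, had a log2 fold change of -0.30 (DESeq2 adjusted P = 0.0151, edgeR adjusted P = 0.133). *Nfe2l2*, the antioxidant response factor, and *Hnf4a* were at 0.16 and at 0.00 on the log2 scale (edgeR adjusted P = 0.534 and 0.993). Counts on mouse *Nr1i3* (CAR) and *Nr1i2* (PXR), at 7.48 ± 1.64 and 12.5 ± 2.46 CPM in control livers (S.D., n = 5), do not measure the human receptors of these mice.

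*Cyp2a4* stood beside another gene of that list. Over the 10 livers, after subtraction of group means, the 3 genes with the pattern most like *Cyp2a4* among 11610 compared were *Dnase2b* (r = 0.947), *Ppargc1a* (0.943) and *Ube2j1* (0.942). *Ppargc1a*, which encodes the fasting-responsive coactivator PGC-1α, was at 8.66, 9.53, 7.97, 9.15 and 9.30 CPM in control replicates 1 to 5 and at 7.52, 9.43, 9.14, 6.61 and 6.35 CPM in MI-883 replicates 1 to 5. Within the MI-883 group, replicates 4 and 5 were lowest and replicates 2 and 3 highest for both genes. *Ppargc1a* did not pass the edgeR test (log2 fold change -0.19, adjusted P = 0.467), and *Cyp2a5* did not follow it (r = -0.09). For *Cyp2a4*, 34 of the 11610 genes reached an r of 0.80 and 36 an r of -0.80.

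**Figure D4:**
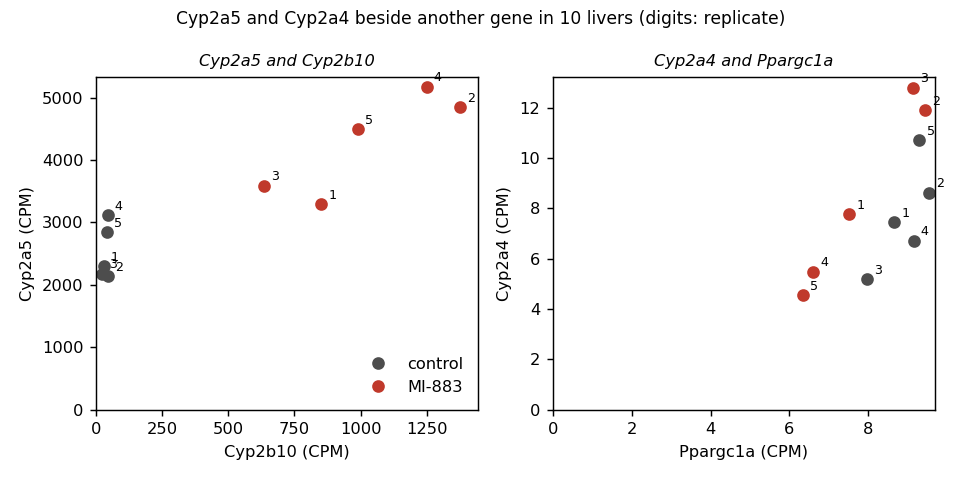
CPM of *Cyp2a5* against *Cyp2b10* (left) and of *Cyp2a4* against *Ppargc1a* (right) in 5 control (grey) and 5 MI-883-treated (red) livers, with the replicate number beside each point and linear axes from 0. Within the MI-883 group, replicates 2, 4 and 5 are high for *Cyp2a5* and *Cyp2b10*, and replicates 4 and 5 are low for *Cyp2a4* and *Ppargc1a*.

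The genes most like *Cyp2a5* were *Cdv3* (r = 0.955), *Ptgr2* (0.945) and *Cpox* (0.935). *Cpox* encodes coproporphyrinogen oxidase, an enzyme of the synthesis of heme, which every P450 carries. Its mean level was 161 CPM in the control and 181 CPM in the MI-883 group (log2 fold change 0.16, edgeR adjusted P = 0.354). *Cyp2a12* was most like *Cela1* (0.915), *Acbd4* (0.899) and *Mup1* (0.899), the last a major urinary protein gene of male liver, and 69 genes reached an r of 0.80. *Cyp2a22* was most like *Cblb* (0.869), *Adamtsl2* (0.867) and *Bbs4* (0.847), and 6 genes reached an r of 0.80.

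Genes that act with Cyp2a5 on heme and bilirubin were measured as well. Of 7 tested, edgeR called *Ugt1a1*, the enzyme that conjugates bilirubin, which rose by 0.55 on the log2 scale (SE 0.106, adjusted P = 0.0260). The list had a median log2 fold change of 0.17 (3 at an unadjusted P below 0.05), with 5 estimates above 0 and 2 below. *Ugt1a1* is also a member of the list of common targets of CAR. *Blvrb*, a biliverdin reductase, was at 181 ± 18.8 and 219 ± 11.2 CPM (S.D., n = 5), and its groups did not overlap. *Blvrb* was called in DESeq2 alone (adjusted P = 0.0305, edgeR 0.134). *Blvra*, the other biliverdin reductase of the list, had an estimate in the opposite direction (log2 fold change -0.21, SE 0.0776). Neither method called *Blvra* (edgeR adjusted P = 0.224, DESeq2 0.201). *Hmox1*, heme oxygenase, had a log2 fold change of 0.17 (edgeR adjusted P = 0.524), and *Alas1*, the first enzyme of heme synthesis, one of 0.06 (edgeR adjusted P = 0.899). Of 6 electron partners of P450 enzymes, none was called by edgeR (1 at an unadjusted P below 0.05), and the median was 0.06. DESeq2 called *Cyb5a*, cytochrome b5, at a log2 fold change of 0.38 (adjusted P = 0.0317). *Por*, the reductase that supplies the CYP2A enzymes, was at 850 ± 231 and 1147 ± 356 CPM (S.D., n = 5, edgeR adjusted P = 0.365).

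Because *Cyp2a5* is expressed around the central vein, other zonated genes were set beside it. Of 15 other pericentral genes, 2 rose and none fell in edgeR, against 0.764% higher and 0.265% lower over all genes tested. The median log2 fold change of the 15 was 0.27. At an unadjusted P below 0.05 there were 7, and DESeq2 called 3 higher, the third being *Glul*, glutamine synthetase (log2 fold change 0.27, DESeq2 adjusted P = 0.0128, edgeR 0.155, groups that did not overlap), and 1 lower, *Rgn* (-0.29, DESeq2 adjusted P = 0.0346, edgeR 0.167). The 2 of edgeR were *Cyp1a2*, the P450 that oxidizes caffeine (log2 fold change 1.76, adjusted P = 0.000124), and *Lect2*, a secreted hepatocyte protein (0.55, adjusted P = 0.0424), while *Cyp2e1*, the most abundant pericentral P450 of the list, was at -0.07. *Cyp1a2* is also a member of the list of common targets of CAR. Of 12 tested periportal genes, *Hal*, histidine ammonia lyase, fell by 0.46 (edgeR adjusted P = 0.0264), and the median was -0.27. At an unadjusted P below 0.05 there were 7, and DESeq2 called *Hal* alone. The part of these shifts in the rise of *Cyp2a5* was not tested.

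*Cyp2a4* is known as a female-biased gene of liver, and other sex-biased genes were set beside it. Of 19 listed other female-biased genes, 15 were tested, and none was called in edgeR (4 at an unadjusted P below 0.05), with a median log2 fold change of -0.26. DESeq2 called 2, both lower. They were *Prlr* (log2 fold change -1.14, DESeq2 adjusted P = 0.0254, edgeR 0.0723) and *Cyp2c40* (-1.24, DESeq2 adjusted P = 0.0317, edgeR 0.129). *Cyp2b9* and *Cyp2b13*, neighbours of *Cyp2a4* with the same bias, varied widely between animals, from 1.83 to 32.3 CPM and from 1.06 to 12.1 CPM. Control replicate 3 and MI-883 replicates 4 and 5, the livers with the fewest *Cyp2a4* counts, also had little *Cyp2b9* (3.31, 1.83 and 3.01 CPM). After subtraction of group means, r with *Cyp2a4* was 0.61 for *Cyp2b9* and 0.47 for *Cyp2b13*. With *Cyp2a4*, 34 of 11610 genes reached an r of 0.80, and how many reached 0.61 or 0.47 was not counted. Of 19 other male-biased genes, 4 rose and none fell in edgeR, against 0.764% higher and 0.265% lower over all genes tested. The 4 were *Cyp2d9*, the fatty acid hydroxylase genes *Cyp4a12a* and *Cyp4a12b*, and the complement gene *C6*. The list had a median log2 fold change of 0.38 (7 at an unadjusted P below 0.05, and 5 higher in DESeq2). DESeq2 added *Selenbp2* (log2 fold change 1.84, DESeq2 adjusted P = 0.00993, edgeR 0.0561), whose groups did not overlap.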

How the data were processed

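Liver RNA of 5 control and 5 MI-883-treated mice was sequenced as strand-specific paired-end libraries. The authors deposited raw counts per gene under Entrez gene numbers. Per the labels, fastp 0.23.0 and featureCounts were used on build mm10, and the study's methods add STAR; annotation and strand setting are not given in the sources used here. Of 16647 listed genes, 16644 were matched to RefSeq of GRCm38, and the 4 Cyp2a genes were taken by symbol.

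A gene entered the tests when its counts over the 10 livers added up to 60 or more, which 13219 did. The main test was the quasi-likelihood test of edgeR 4.0.16 (R 4.3.3) after TMM scaling, with no term but treatment. P values were adjusted by Benjamini-Hochberg over all tested genes. DESeq2 1.42.0 and a surrogate variable from sva 3.50.0 served as alternatives, with other filters, scalings, a replicate block and the omission of single livers. CPM use TMM-scaled libraries, and levels per kilobase use the longest GENCODE transcript of each gene that carries a RefSeq accession. Log2 ratios used a pseudocount of 0.5 counts, and log2 CPM a prior of 2 counts. Likeness to other genes was ranked over genes of at least 1 CPM on average. No 2 libraries of a group agreed within sampling noise. P values measure the spread between animals. The members and gene lists were chosen with earlier results of these data known. Named genes are the members, genes of the lists and the 3 genes most like each member. Promoters are from RefSeq (GRCm38.p6) and transcripts from GENCODE (GRCm38).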

Additional observations from a re-analysis of the deposited data

Results flagged for a closer look

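Each of the 4 genes and 6 ratios was searched in each group of 5 livers for 1 liver far from the rest. Of 20 such searches 2 found one, where chance gives about 1, and both concern *Cyp2a22* in control replicate 2. Its level there was 3.28 CPM, with the nearest control liver at 0.695 CPM. The log2 ratio of *Cyp2a12* to *Cyp2a22* there was 7.66, with the nearest control liver at 10.32. Among 13219 tested genes, *Cyp2a22* was the one by which control replicate 2 exceeded every other liver most, by 1.77 on the log2 scale and with 105 counts against 12 to 21 elsewhere. The growth factor gene *Igf2* came next (48 counts against 3 to 14), followed by *Shisa3* (30 counts against 4 to 11). The female-biased *Cyp2c40* came after these, with 90 counts against 9 to 38. These genes were picked after their values were seen. Control replicate 2 had 2 genes more than 1 log2 unit above every other liver, while the other livers had between 0 and 12. The cause was not tested.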

How the results depend on the processing

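Outside the omission of single livers, *Cyp2a5* passed in all fits that were run, with log2 fold changes of 0.76 to 0.87, and no other member passed in any. Replicate numbers do not pair the animals: same-number correlations were 0.36, -0.121, -0.102, 0.0761 and 0.079. With a replicate block, 89 genes passed in place of 136, and *Cyp2a5* remained called (0.76, adjusted P = 0.0238), while the paired exact permutation test of its CPM (0.76) gave 0.0625, the smallest that 5 pairs allow, and its ratio to *Cyp2a12* (0.71) an adjusted P of 0.375. The gene count was 463 in DESeq2, with or without its Cook cut-off, and 254 with a surrogate variable. It was 62 to 208 over the omission of single livers: 208 without control replicate 1, 87, 81, 75 and 68 without control replicates 2, 3, 4 and 5, and 70 and 62 without MI-883 replicates 2 and 5.

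Over those omissions, *Cyp2a5* lay between 0.69 and 0.86 by edgeR and between 0.69 and 0.85 by CPM (exact permutation P = 0.0159 in each). Its ratio to *Cyp2a12* lay between 0.62 and 0.78. The exact permutation test gave it an adjusted P of 0.0476 without control replicate 4, where the ratio to *Cyp2a22* had the same adjusted P. Without any other liver it was 0.0952. As 5 against 4 livers give no P under 0.0159, the adjusted P cannot tell which livers matter. The ratio to *Cyp2a22* ranged from 0.49 to 1.34, and passed without control replicate 4 (adjusted P = 0.0476). The ratio to *Cyp2a4* ranged from 0.49 to 0.94.

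The direction of *Cyp2a4* turned without MI-883 replicate 2 (-0.01; CPM -0.09) or 3 (-0.07; CPM -0.12) and, in CPM, without control replicate 3 (-0.08), in ranges of -0.07 to 0.29 and -0.12 to 0.25. *Cyp2a12* turned without control replicate 2 (-0.02, also in CPM), in ranges up to 0.09, and *Cyp2a22* turned to 0.25 and, in CPM, 0.20, from lows of -0.98 and -0.49. The ratio of *Cyp2a4* to *Cyp2a12* turned without control replicates 3 (-0.17) and 4 (-0.08) and MI-883 replicates 1 (-0.01), 2 (-0.12) and 3 (-0.19), with a high of 0.19. Without control replicate 2, *Cyp2a4* to *Cyp2a22* was -0.11 (high 0.61) and *Cyp2a12* to *Cyp2a22* was -0.24 (high 0.59). The cause was not tested. DESeq2 gave no adjusted P for *Cyp2a22* by its Cook cut-off (0.514 without it). A minimum of 60 counts in every liver removes *Cyp2a22*. CPM alternatives, and the fit without the cut-off, were chosen after seeing the data. At 12 to 21 counts in 9 livers, small changes of *Cyp2a22* were not detectable.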

Other observations

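Growth hormone signalling sets the sex bias of liver genes such as *Cyp2a4*. Of 10 tested genes of this pathway, none was called in edgeR (3 at an unadjusted P below 0.05, and 1 in DESeq2), and the median log2 fold change was -0.08. *Cish*, a feedback inhibitor of the pathway, varied from 7.15 to 49.4 CPM in control and from 5.85 to 20.0 CPM in MI-883-treated livers (log2 fold change -1.05, SE 0.440, edgeR adjusted P = 0.277). *Igf1*, the main hormone made under its control, was at 564 ± 81.2 and 445 ± 26.7 CPM (S.D., n = 5), which DESeq2 called (adjusted P = 0.0332) and edgeR did not (adjusted P = 0.142).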
